A study of Mus musculus with 10 samples.

Results

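A set of 79 genes with a protein-coding transcript was high in mouse embryonic stem cells (ESC) and still near 0 after 9 days of induced reprogramming, out of 45706 genes measured and 21923 with a protein-coding transcript. The set was chosen from the levels themselves: a mean of at least 5 TPM (a read count corrected for transcript length and library size) in ESC, and a mean under 0.5 TPM in fibroblasts and at days 3, 6 and 9. Another 11 genes met these thresholds and were left out by name: Dazl, Sohlh2, Slc25a31, Mael, Zfp352 or symbols that start with Zscan4, Tcstv, Tdrd, Syc, Dppa or Hox. Because the rule used the ESC level and the 0.5 TPM cap, the gap between ESC and the other groups is a description, with no test. The tests below compare only fibroblasts, day 3, day 6 and day 9 with each other, on differences that the cap allows.

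Reprogramming turns a somatic cell into a pluripotent one by forced expression of the transcription factors Oct4, Klf4, Sox2 and Myc. The genes of a stem cell do not all come on together: some of the endogenous pluripotency genes are known to respond only late in the process. Many germ cell genes are kept silent in somatic cells by DNA methylation of CpG-rich promoters and by repressors that bind E-box sequences.

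Each of the 5 groups had 2 libraries, labelled with the strain C57BL/6 x 129. The fibroblasts (MEF) carried the genotype OKSM Col1a1/M2rtTA ROSA26, an inducible cassette of the 4 factors with its transactivator, and grew in MEF medium without doxycycline. Cells of the same genotype at day 3 (D3), day 6 (D6) and day 9 (D9) grew in ESC medium with doxycycline at 1 µg/ml and ascorbic acid at 50 µg/ml. D3 cells were unsorted, and D6 and D9 cells were sorted for SSEA+, so D6 against D3 combines time with sorting. The ESC were the line V6.5, without the cassette in its label, grown on irradiated feeder cells with LIF at 1000 U/ml and not sorted. The labels do not say that replicates came from separate cultures, so p-values measure the spread between these libraries, which may be technical.

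Libraries held 29585876 to 38275024 reads. The summed level of 10 pluripotent stem cell markers was 3546 and 3573 TPM in ESC, 365.1 and 373.3 TPM at D9, and 50.2 and 54.5 TPM in MEF. It was 250.3 and 277.3 TPM at D3, with 4 of 10 markers at 1 TPM or more in each library. These markers include Pou5f1 (Oct4) and Sox2, which are also factors of the cassette. The part of cassette transcripts in the sum was not tested. Fibroblast or feeder markers summed to 743.4 and 779.4 TPM in ESC, 9.86 and 10.4 TPM at D9, and 8742 and 9181 TPM in MEF, with 9 of 10 at 1 TPM or more in each ESC library. The set itself summed to 4.88 ± 0.232 TPM in MEF (SD, n = 2), and the part of the feeder RNA in single ESC values was not tested. In these bulk samples, fewer cells with a transcript and less transcript per cell cannot be told apart.

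Of 253 protein-coding genes with at least 5 TPM in ESC and under 0.5 TPM in MEF, 65 (25.7%) had reached 5 TPM at D9, 94 (37.2%) lay between 0.5 and 5 TPM, and 94 (37.2%) were still under 0.5 TPM. Of the last 94, 4 had passed 0.5 TPM at D3 or D6 and 11 were left out by name, which leaves the 79. Just inside the ESC threshold lay C330021F23Rik at 5.17 TPM, Gm17449 at 5.19 TPM and Myl7 at 5.24 TPM. Gm14444 at 4.93 TPM, Gm21304 at 4.89 TPM and Dmc1 at 4.84 TPM lay just outside it. At the D9 cap, Rex2 at 0.456 TPM, C330021F23Rik at 0.441 TPM and Dmtn at 0.396 TPM lay just inside. Hsf2bp at 0.501 TPM, Zfp534 at 0.525 TPM and Zfp600 at 0.548 TPM lay just outside. Both thresholds therefore cut through a continuous range of levels.

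In ESC the members were mostly of low to moderate abundance. Their median was 9.69 TPM, with 2 members over 50 TPM, 34 between 10 and 50 TPM and 43 under 10 TPM. The 2 ESC libraries gave nearly the same values: a member differed between them by a median of 1.07-fold, 62 members by at most 1.2-fold and 5 by more than 1.5-fold. The whole set summed to 1434.7 ± 2.88 TPM in ESC (SD, n = 2), against 4.80 ± 0.889 TPM at D3, 5.55 ± 0.259 TPM at D6 and 10.6 ± 1.33 TPM at D9. At D9 the median member stood at 0.729% of its ESC level, 44 members stood at 1% or less, and the highest was C330021F23Rik at 8.53%.

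**Figure D1:**
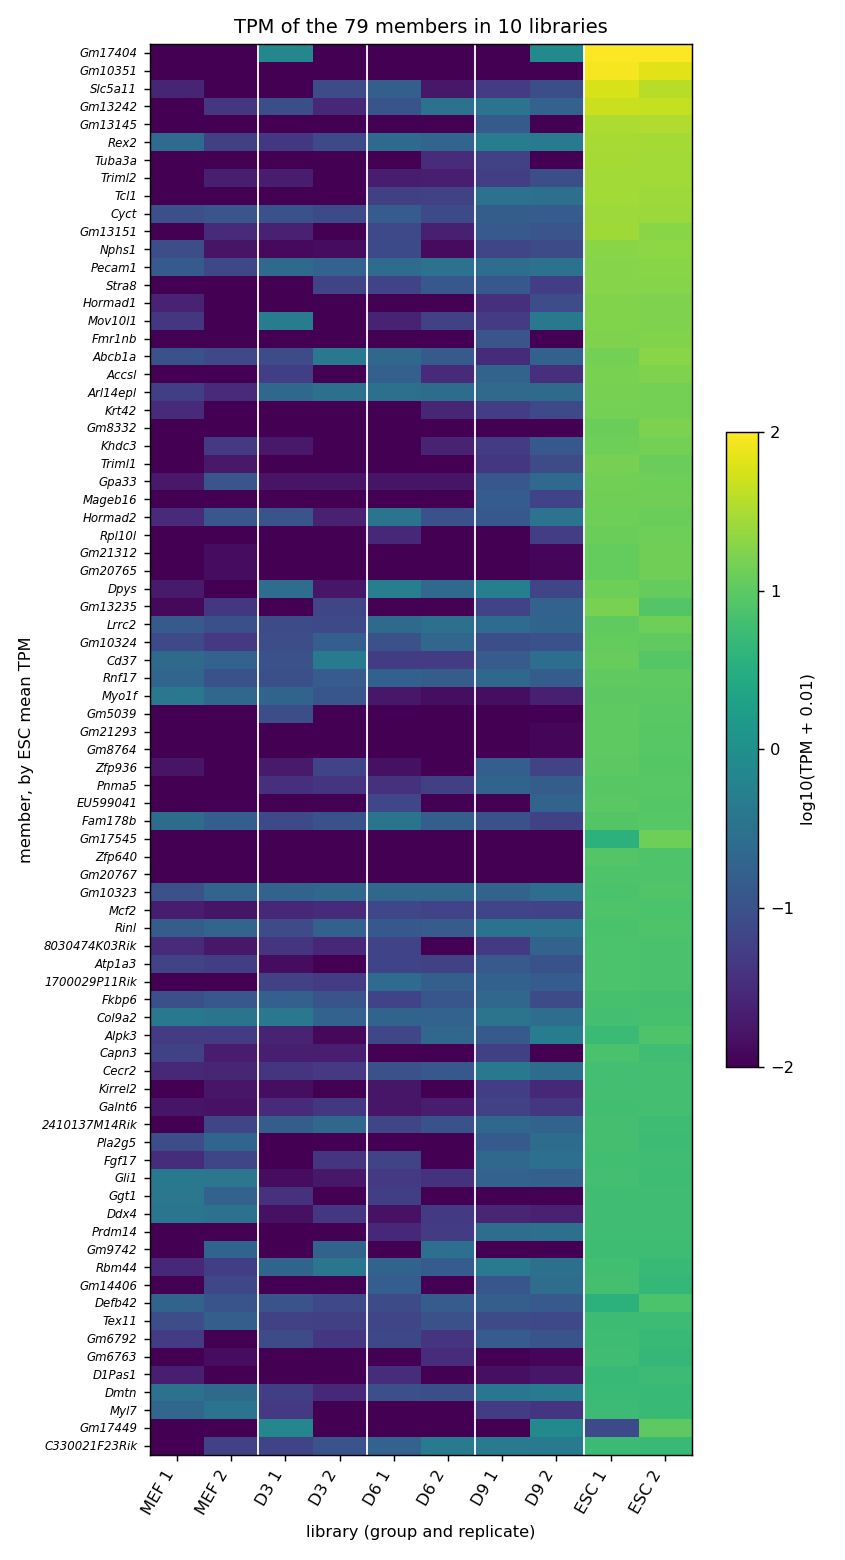
Heat map of log10(TPM + 0.01) for the 79 members (rows, ordered by ESC mean) in the 10 libraries (columns, 2 per group). The 2 ESC columns stand apart by the rule that chose the genes, and the D9 columns hold fewer empty cells than the MEF columns, with 8 members at 0 reads in both D9 libraries against 22 in MEF.

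The ESC levels did not all rest on equal evidence. Gm17404 had the highest level, at 393 and 434 TPM, but its transcript has an effective length of 7.35 bases, so its 450.2 reads over both libraries became the largest value of the set. Without it the set summed to 1020.8 TPM. The same held for Gm10351, with 88.6 and 66.5 TPM from 59 reads on a transcript of 125 bases. Slc5a11, a sodium-coupled transporter of inositol, had 58.2 and 36.8 TPM, and 86.9% of that level lay on a transcript with an effective length of 11.9 bases. Abcb1a, a drug efflux pump, and Mov10l1, an RNA helicase of the piRNA pathway, likewise had most of their level on short transcripts that do not code for protein (effective lengths 5.33 and 27.2 bases). For 13 members the main ESC transcript was not annotated as protein-coding, and 15 had under 50% of their ESC level on coding transcripts, among them Nphs1 (20.1%) and Myo1f (1.21%). In all, 10 members had a main ESC transcript with an effective length under 50 bases. Gm17545 had 5 reads over both ESC libraries and Gm17449 had 5.95, of which nearly all came from 1 library, and neither was tested.

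Shared sequence was the other limit. Of 76 members whose transcripts could be cut into windows of 50 bases, the read length, 38 shared no window with another gene, and 13 shared 50% of their windows or more. Gm13242 and Rex2, both KRAB zinc finger genes on chromosome 4, shared 71.3% and 89.1% of their windows with other genes, so the level of each is uncertain. After leaving out members with under 10 reads in an ESC library, an effective length under 50 bases or at least 50% of their windows shared, 55 members were left.

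**Figure D2:**
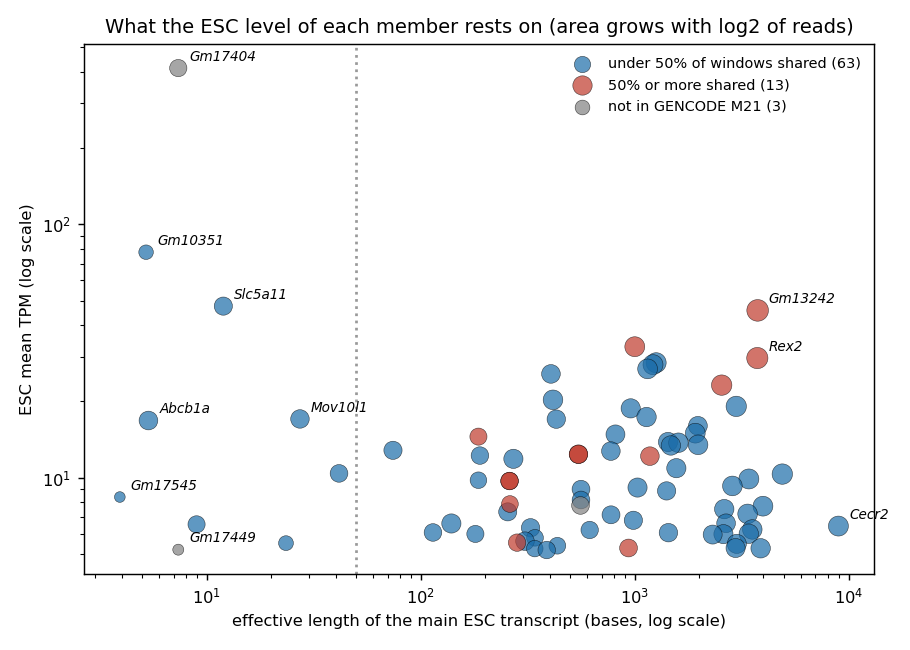
ESC mean TPM (log axis) against the effective length of the transcript with most of the ESC level (bases, log axis), 1 point per member, with a larger area for more ESC reads and red for genes that share 50% of their sequence windows or more. The 3 highest members, Gm17404, Gm10351 and Slc5a11, lie left of the dotted line at 50 bases.

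Low levels before the stem cell stage were not the same in all 4 groups. The median member had 0.0169 TPM in MEF, 0.0222 TPM at D3, 0.0323 TPM at D6 and 0.1005 TPM at D9. Their summed reads, scaled to library size (RPM), were 16.4 ± 0.528 RPM in MEF, 11.5 ± 0.645 at D3, 19.7 ± 0.593 at D6 and 42.5 ± 0.155 at D9 (SD, n = 2 each), so the D9 value lay outside the range of the other 3 groups. For 47 members the highest of these 4 groups was D9, for 16 it was MEF, for 12 D6 and for 4 D3. Members at 0 in all 4 groups, such as Zfp640, were counted under MEF, so the 16 include genes without reads there. Both D9 libraries exceeded both MEF libraries for 42 members (53.2%) and lay under both for 8 (10.1%). By the same count, 44.4% of all tested genes and 41.8% of other tested genes under the 0.5 TPM cap were above, and 38.8% and 24.9% were under. Summed 2-cell-like markers, which are also high in ESC only, stayed at 0.221 and 0.132 TPM at D9 against 0.120 and 0.254 TPM in MEF and 53.8 and 52.8 TPM in ESC.

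Tests used the quasi-likelihood method of edgeR on read counts, fitted to all 10 libraries and 20165 genes. A gene was called at a Benjamini-Hochberg adjusted p under 0.05 and a log2 fold change of at least 1 in size. Of the 79 members, 77 entered, 42 of them only through their ESC reads, since 35 passed the same filter when ESC libraries were left out. The counts over the 77 therefore describe members that the ESC level admitted. From MEF to D9, 35 members rose and 7 fell (24.1% of all tested genes rose, 19.8% fell). The median log2 fold change was 1.84 for the members, 0.19 for all tested genes and 0.49 for 4526 other genes under the 0.5 TPM cap. From D6 to D9, with both groups sorted, 26 members rose and 0 fell (background 5.18% and 2.68%), with a median of 1.09. At an unadjusted p under 0.05, with no fold minimum, 28 members differed between D6 and D9. The share of all tested genes at that threshold was not computed, so this count has no background and is a description only.

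Earlier steps moved fewer members in the full fit. From D3 to D6, 15 rose and 1 fell (9.26% and 10.2% of all tested genes). From MEF to D3, 8 rose and 12 fell (14.6% and 14.5%), so neither direction stood far from the background, and leaving out either MEF library left 4 rises. As shares of the 77 tested, 10.4%, 19.5% and 33.8% rose in the 3 successive steps. Among the other capped genes 12%, 12.6% and 7.69% rose and 16.4%, 7.73% and 1.59% fell. From MEF to D9, 27.1% of those genes rose and 16.5% fell, against 45.5% of the tested members that rose.

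These counts changed when ESC libraries were left out. With the filter also computed without ESC, 35 members were tested, each admitted by its reads in MEF, D3, D6 or D9. Of these, 22 rose and 4 fell from MEF to D9 (22.3% and 22.2% of all genes tested in that fit), and 13 rose and 0 fell from D6 to D9 (5.01% and 2.87%). From D3 to D6 13 rose and 2 fell (8.94% and 11%), and from MEF to D3 5 rose and 7 fell (14.1% and 15.5%). As shares of the 35, 14.3%, 37.1% and 37.1% rose in the successive steps. D9 against D6 thus no longer stood above D6 against D3. This filter favours members whose low level is higher in 1 of the 4 groups, so these counts do not stand for all 79. With the genes of the full fit kept, and thus still admitted by ESC reads, 69 members could be tested: 25 rose and 6 fell from MEF to D9 (21.6% and 21.4% of all tested genes), and 18 rose and 0 fell from D6 to D9 (4.82% and 2.77%). In that fit 12 rose and 2 fell from D3 to D6 (8.56% and 10.6%), and 4 rose and 10 fell from MEF to D3 (13.6% and 15.1%). With limma on log2(TPM + 1), which flattens differences under 1 TPM, 0 members were called in the 4 comparisons, and with log2(TPM + 0.1) 13 rose from MEF to D9 and 8 from D6 to D9.

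**Figure D3:**
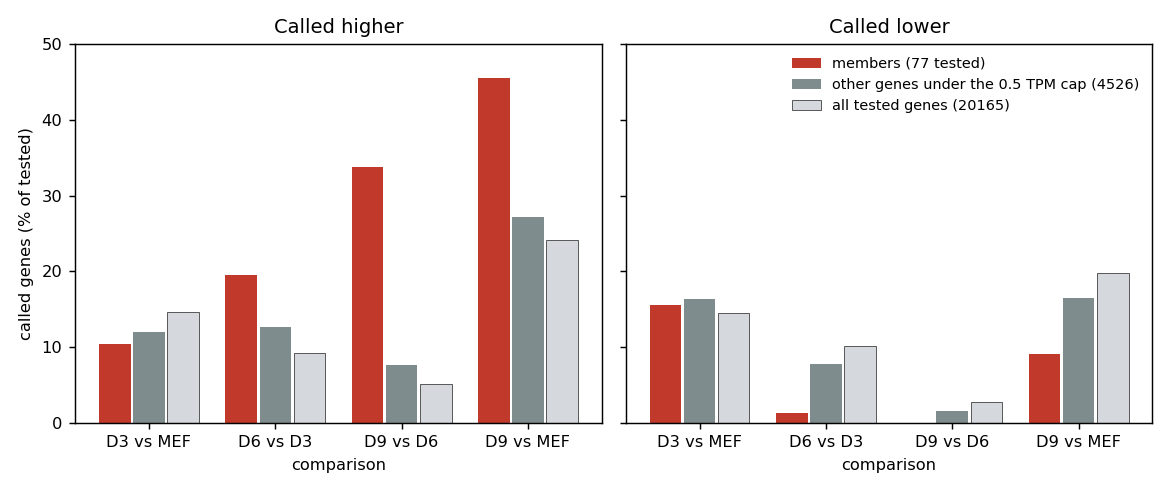
Share of tested genes called higher (left) and lower (right) in the 4 comparisons (percent, axis from 0), for the 77 tested members (red), 4526 other genes under the 0.5 TPM cap (dark grey) and all 20165 tested genes (light grey). For D9 against D6 the red bar stands at 33.8% higher and at 0 lower.

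Genes of the early embryo and of pluripotency made up 7 members, grouped by hand after the members were seen. All 7 rose from MEF to D9 and 6 of them from D6 to D9, against 24.1% and 5.18% of all tested genes. Without ESC in the fit, but with the genes of the full fit kept, 6 and 4 did, against 21.6% and 4.82%. All values without ESC given below for role groups and single genes come from this fit. Its members were still admitted by ESC reads, so these counts describe such members only. Their D9 levels were still 0.228% to 4.57% of ESC. On the longer list of naive and general pluripotency genes, 33 of 43 rose and 3 fell from MEF to D9. The list includes Pou5f1, Sox2 and Klf4, which are factors of the cassette. Of the 25 on that list with at least 5 TPM in ESC and under 0.5 TPM in MEF, 12 had reached 5 TPM at D9 and 2, Prdm14 and Tcl1, were members.

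Prdm14 (ENSMUSG00000042414.7, chr1:13113457-13127163, minus strand) encodes a nuclear protein that keeps the naive pluripotent state and specifies primordial germ cells. It had 0 TPM in all 4 MEF and D3 libraries, 0.0177 and 0.0421 TPM at D6, 0.255 and 0.289 TPM at D9, and 5.98 and 5.92 TPM in ESC. No library of a later group overlapped an earlier one from D3 on. From D6 to D9 it rose by 3.25 ± 0.325 on the log2 scale (SE; edgeR, adjusted p = 7.75e-06). Against MEF the D9 libraries, with 103 reads, were at least 35.5-fold higher in RPM, with the floor set at 3 reads over both MEF libraries. Such bounds and the read ratios below cover counting error only.

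Tcl1 (ENSMUSG00000041359.12, chr12:105216750-105222793, minus strand), a co-activator of the Akt kinase, followed the same course. It read 0 TPM in MEF and D3, 0.0478 and 0.0487 TPM at D6, 0.295 and 0.285 TPM at D9, and 27.6 and 26.2 TPM in ESC. The D9 libraries were again above every earlier one. It rose from D6 to D9 by 3.34 ± 0.435 on the log2 scale (SE; edgeR, adjusted p = 7.70e-05), from 4 to 45 reads. With an ESC level over 4 times that of Prdm14 it stood at a similar D9 level, so it was at 1.08% of ESC where Prdm14 was at 4.57%.

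Rex2 (ENSMUSG00000067919.8, chr4:147021850-147060794, plus strand) is a zinc finger gene and is not the marker Rex1 (Zfp42). It had 0.238 and 0.0476 TPM in MEF, 0.0341 and 0.0672 TPM at D3, 0.223 and 0.195 TPM at D6, 0.494 and 0.417 TPM at D9, and 30.3 and 29.0 TPM in ESC. The higher MEF library lay above both D6 libraries, and both D9 libraries lay above all others. It rose from D6 to D9 by 1.202 ± 0.151 (edgeR, adjusted p = 2.29e-05), within the limit that most of its sequence is shared with Zfp600 and other copies.

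Triml1 and Triml2, genes of the tripartite motif-like family that together span 0.0641 Mb on chromosome 8, are known from early embryos. Triml1 had 0 to 0.00863 TPM in the 6 libraries before D9, 0.0351 and 0.0753 TPM at D9, and 15.3 and 12.2 TPM in ESC. Triml2 had 0 to 0.0114 TPM before D9, 0.0462 and 0.0810 TPM at D9, and 27.9 TPM in both ESC libraries. For both genes the D9 libraries were the highest of the 8, on 15 and 13 reads. Khdc3, a subunit of the maternal complex of the egg, had 0.0393 and 0.116 TPM at D9 against at most 0.0373 TPM before it, so the groups nearly touch. Its call from MEF to D9 was lost without ESC in the fit (adjusted p = 0.0536).

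Pecam1, an adhesion molecule on endothelium and on stem cells of the inner cell mass, rose early instead. It had 0.124 and 0.0647 TPM in MEF, 0.222 and 0.174 TPM at D3, 0.244 and 0.302 TPM at D6, 0.261 and 0.304 TPM at D9, and 18.8 and 19.4 TPM in ESC. The D6 and D9 libraries overlapped. Only D3 against MEF was called among the 3 steps (log2 fold change 1.33 ± 0.308, edgeR, adjusted p = 0.00162). This call was lost without MEF replicate 2 and with both limma settings.

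Germ cell genes were the largest group, with 15 members. From MEF to D9, 6 rose and 1 fell (24.1% and 19.8% of all tested genes), and 3 and 1 without ESC in the fit (21.6% and 21.4%), which is near the background. Of 56 measured genes on the germ cell list, 16 had at least 5 TPM in ESC and under 0.5 TPM in MEF. Of those 16, 10 were members and 2, Kit and Rec8, had reached 5 TPM at D9. The 10 were Ddx4, Fkbp6, Hormad1, Hormad2, Mov10l1, Rnf17, Rpl10l, Stra8, Tex11 and Tuba3a. Over the whole list 20 of 46 tested genes rose and 6 fell from MEF to D9.

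The highest of the 10 in ESC was Tuba3a, a testis alpha-tubulin, at 28.9 and 27.9 TPM, with 0.0516 and 0 TPM at D9 and 0.0221 TPM in the highest other library. Its 5 reads at D9 stood against 0 in MEF. Stra8, a gene induced by retinoic acid at the entry into meiosis, had 18.6 and 18.9 TPM in ESC, 0.114 and 0.0445 TPM at D9 and 0 TPM in MEF. Its call from MEF to D9 rested on 4 reads and was lost without ESC in the fit (adjusted p = 0.148). Both genes therefore stood near the limit of detection in all 8 libraries.

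Hormad1 and Hormad2, proteins of the meiotic chromosome axis, differed in their low levels. Hormad1 had 0.0151 and 0 TPM in MEF, 0 TPM in all 4 D3 and D6 libraries, 0.0248 and 0.0772 TPM at D9 and 17.8 and 16.9 TPM in ESC. The rise from D6 to D9 was called in the full fit and lost without ESC (adjusted p = 0.067). Hormad2 had 0.0205 and 0.112 TPM in MEF, 0.334 and 0.0920 TPM at D6, 0.114 and 0.326 TPM at D9 and 13.0 and 12.7 TPM in ESC. The lower D9 library of Hormad2 was at nearly the level of the higher MEF library, and its call from MEF to D9 was lost without ESC (adjusted p = 0.0579) and without MEF replicate 1 or D9 replicate 2.

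Mov10l1 reached 0.402 TPM in 1 D9 library and 0.464 TPM in 1 D3 library and at most 0.0509 TPM in the other 6. Reads and TPM ran apart, with most of its ESC level on a short transcript: the D3 library held 2 reads, and the D9 libraries held 11 and 18 against 2 and 0 in MEF. It was called higher from MEF to D9 (log2 fold change 3.47, edgeR, adjusted p = 0.000553, and 0.00877 without ESC) and from D6 to D9 (adjusted p = 0.013, lost without ESC at 0.0869 and without D6 replicate 1 or D9 replicate 2). Rnf17, a tudor protein of the piRNA pathway, lay between 0.0855 and 0.215 TPM in all 8 libraries and was called in none of the 4 comparisons. Fkbp6, a co-chaperone needed in meiosis, and Tex11, an X-linked gene of meiotic recombination, had reads in all 8 libraries, at 0.0539 to 0.197 TPM and 0.0469 to 0.152 TPM. Tex11 fell from MEF to D3 (log2 fold change -1.33, SE 0.353, edgeR, adjusted p = 0.00439), a call lost without MEF replicate 2 and with both limma settings. Rpl10l, a testis copy of a ribosomal protein gene, had reads in 2 of the 8 libraries.

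Ddx4 (ENSMUSG00000021758.11), the germ cell RNA helicase also called Vasa, went the other way. It had 0.359 and 0.307 TPM in MEF, then 0.00488 and 0.0335 TPM at D3, 0.00542 and 0.0375 TPM at D6, 0.0167 and 0.0130 TPM at D9, and 5.95 and 6.00 TPM in ESC. Every induced library lay under both MEF libraries. From 111 reads in MEF to 7 at D3 it fell by 4.18 in log2 units (SE 0.435, edgeR, adjusted p = 9.12e-07), and the D9 libraries held 6 reads.

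Mageb16, an X-linked gene of the MAGE family, had 0 reads in all 6 libraries before D9, 0.133 and 0.0546 TPM at D9 and 13.4 TPM in both ESC libraries. Its 22 reads made D9 at least 7.04-fold higher than D6 in RPM. Rbm44, a germ cell protein of the bridges between dividing cells, had 0.0190 and 0.0450 TPM in MEF, 0.186 and 0.367 TPM at D3, 0.176 and 0.136 TPM at D6, and 0.412 and 0.286 TPM at D9. It rose at the first step, by 2.34 ± 0.367 (edgeR, adjusted p = 5.95e-05), and again from D6 to D9. Cyct, the testis cytochrome c, lay between 0.0686 and 0.139 TPM in all 8 libraries.

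**Figure D4:**
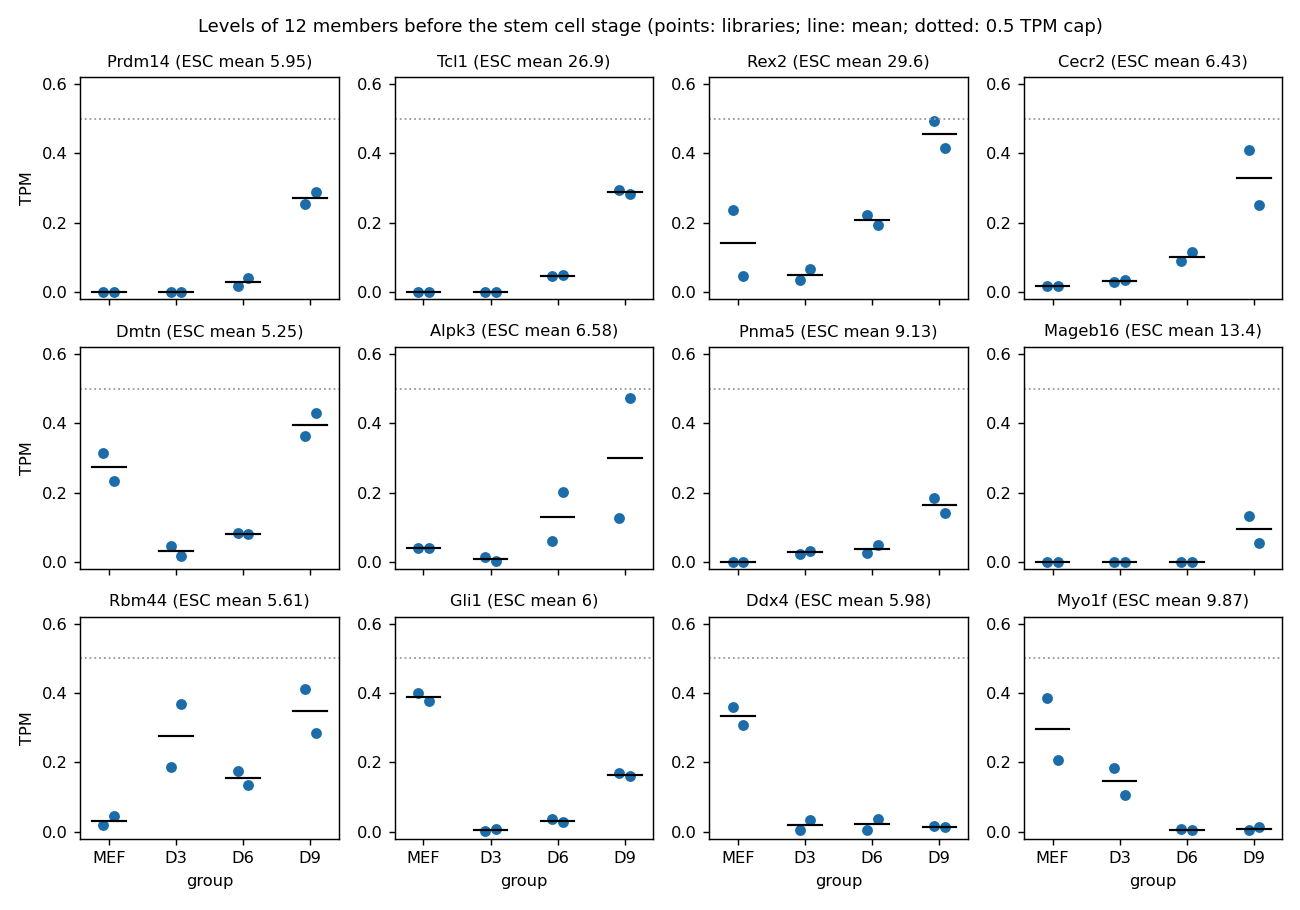
TPM of 12 members in the 8 libraries before the stem cell stage (points; lines mark group means, the dotted line the 0.5 TPM cap), with the ESC mean in each title. Prdm14, Tcl1 and Mageb16 are at or near 0 until D9, whereas Gli1 and Ddx4 start at 0.307 to 0.4004 TPM in MEF.

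Zinc finger genes other than Rex2 made up 10 members, most of them KRAB genes of recent clusters. From MEF to D9, 6 rose and 0 fell (24.1% and 19.8% of all tested genes), and 4 rose without ESC in the fit (21.6%). Gm13242, Gm13151, Gm13235 and Gm14406 were called higher and shared 71.3%, 68.1%, 86.4% and 93.3% of their windows with other genes. Rises of such copies are not independent. On the list of zinc finger genes by symbol, 129 of 393 rose and 20 fell. Gm13242 had 47.7 and 43.7 TPM in ESC, 0.326 and 0.173 TPM at D9 and 0 and 0.0325 TPM in MEF. Zfp936 had 9.80 and 8.73 TPM in ESC, 0.145 and 0.0561 TPM at D9 and at most 0.0532 TPM before it, and rose from 1 read at D6 to 27 at D9. Zfp640, in contrast, had 0 reads in all 8 libraries and 8.41 and 7.89 TPM in ESC. Zero reads here allow up to 3 reads per group by counting error.

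Members from multi-copy families on chromosomes 10, 12 and 13 numbered 8, and their levels outside ESC reached 0.0807 TPM in 1 D3 library, for Gm5039. At D9 they stood at 0% to 0.0174% of ESC, none was called in any comparison, and only 2 had reads enough to enter a fit without ESC. On chromosome 10, Gm6763, Gm21293, Gm8764, Gm21312 and Gm20765 lie within 0.0450 Mb. Their transcripts are near-identical copies, and Gm21312 and Gm20765 have equal values in every library, as have Gm21293 and Gm8764. The copies are thus no independent observations. Gm20765, the member on the list of preimplantation and 2-cell genes, had 11.3 and 13.5 TPM in ESC and at most 0.00369 TPM elsewhere. On that list 4 of 29 tested genes rose and 0 fell from MEF to D9, against 24.1% and 19.8% of all tested genes.

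Regulators of signalling and chromatin had the highest median D9 level relative to ESC among the role groups, at 4.12% over 6 members. The 0.5 TPM cap bounds this ratio more tightly where the ESC level is higher, so the ranking is only a description. Their median D9 level was 0.274 TPM, with a median of 6.51 TPM in ESC. The early embryo and pluripotency group had a similar median at D9, 0.272 TPM. Its median ESC level was higher, and its median ratio was 1.08%. Of the 6 regulators, 4 rose and 1 fell from MEF to D9, and 5 rose from D6 to D9, with the same counts without ESC in the fit. Of all tested genes 24.1% rose and 19.8% fell from MEF to D9 and 5.18% rose from D6 to D9. Cecr2 (ENSMUSG00000071226.9, chr6:120666369-120771190, plus strand) encodes a bromodomain subunit of chromatin remodelling complexes. It had 0.0182 and 0.0167 TPM in MEF, 0.0296 and 0.0360 TPM at D3, 0.0898 and 0.116 TPM at D6, 0.409 and 0.252 TPM at D9, and 6.43 TPM in both ESC libraries. No 2 successive groups overlapped. From D6 to D9 it rose by 1.74 ± 0.149 (edgeR, adjusted p = 4.96e-07), and its D9 RPM was 26.3 times that of MEF (counting interval 14.5 to 53.4).

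Fgf17, a secreted growth factor, had 0.215 and 0.282 TPM at D9 against at most 0.0576 TPM before it, and rose by 3.16 ± 0.626 from D6 to D9 (edgeR, adjusted p = 0.0012). Its neighbour on the same strand, Dmtn, an actin-bundling protein of the red cell membrane, had 0.314 and 0.232 TPM in MEF, 0.0456 and 0.0189 TPM at D3, 0.0833 and 0.0807 TPM at D6, and 0.362 and 0.431 TPM at D9. Dmtn therefore fell and then returned. Alpk3, a kinase of muscle, also fell at D3 but then passed its MEF level, with wider replicates: 0.0419 and 0.0406 TPM in MEF, 0.0141 and 0.0023 TPM at D3, 0.0603 and 0.200 TPM at D6, and 0.126 and 0.473 TPM at D9. From MEF to D9 it rose by 1.64 ± 0.289 (edgeR, adjusted p = 0.000135), whereas Dmtn was not called.

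Gli1 (ENSMUSG00000025407.6, chr10:127329882-127341974, minus strand), the transcription factor that is both effector and target of Hedgehog signalling, showed the largest fitted fall at D3. It had 0.4004 and 0.376 TPM in MEF, 0.00361 and 0.00825 TPM at D3, 0.0360 and 0.0286 TPM at D6, 0.169 and 0.160 TPM at D9, and 6.26 and 5.73 TPM in ESC. No 2 of these groups overlapped. It fell by 5.98 from MEF to D3 (log2, SE 0.302, edgeR, adjusted p = 2.96e-10), then rose by 2.40 ± 0.550 to D6 (adjusted p = 0.00284) and by 2.41 ± 0.254 to D9 (adjusted p = 3.96e-06).

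Other members had their highest low level in MEF and did not regain it. Myo1f, a myosin of immune cells, had 0.386 and 0.208 TPM in MEF, 0.185 and 0.107 TPM at D3, and at most 0.0128 TPM in the 4 sorted libraries. Its reads ran the other way at the first step, with 28 in MEF and 48 at D3 (not called, edgeR, adjusted p = 0.159), and 1.21% of its ESC level lay on coding transcripts. It was the member called lower from D3 to D6 (log2 fold change -3.81, SE 0.478, edgeR, adjusted p = 8.82e-06). Ggt1, an enzyme of glutathione breakdown, had 0.375 and 0.171 TPM in MEF and 0 reads at D9. Myl7, the atrial myosin light chain, had 0.201 and 0.324 TPM in MEF and 0.0413 and 0.0321 TPM at D9. Summed blood and immune markers were 12.5 and 11.03 TPM in MEF, 66.1 and 75.4 TPM at D3, 32.1 and 33.96 TPM at D6 and 14.8 and 16.1 TPM at D9, and their part in the course of Myo1f was not tested. Cd37, a leukocyte tetraspanin, was called lower at D3 on 10 reads against 21 in MEF, but its TPM of 0.0883 and 0.413 at D3 enclosed the MEF values of 0.235 and 0.174. The call was lost without ESC (adjusted p = 0.0883).

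Of the remaining members, Pnma5, an X-linked gene of the paraneoplastic antigen family, rose in steps. It had 0 TPM in MEF, 0.0242 and 0.0321 TPM at D3, 0.0265 and 0.0478 TPM at D6, 0.185 and 0.141 TPM at D9, and 9.27 and 8.98 TPM in ESC. Only the D3 and D6 libraries overlapped. The D9 libraries held 43 reads, at least 14.8-fold the MEF value in RPM. Arl14epl rose at D3 and stayed level, with 0.0445 and 0.0216 TPM in MEF and 0.205 to 0.286 TPM in the 6 induced libraries. Nphs1 and Kirrel2, divergent neighbours on chromosome 7 that encode nephrin and a nephrin partner of the kidney filter, had 19.6 and 20.9 TPM and 6.40 and 6.26 TPM in ESC, with at most 0.0772 TPM for Nphs1 and 0.0432 TPM for Kirrel2 elsewhere.

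Position was a feature the rule did not use. Of 75 members with a position in GENCODE M21 (GRCm38), 25 fell into 10 groups of neighbours within 1 Mb. Besides the chromosome 10 copies, Dmtn with Fgf17, Kirrel2 with Nphs1 and Triml1 with Triml2, these included Gm13242 with Gm13235 and Rex2 with Gm13151 and Gm13145 on chromosome 4. On chromosome 7, Zfp936 and EU599041 lay beside Gm10351. Neighbour groups were not counted for other genes. The X chromosome held 6 members, 8.0% of those placed, against 4.31% of protein-coding genes and 6.25% of the genes that had reached 5 TPM at D9. Other chromosomes departed in both directions, such as chromosome 7 (14.7% against 9.06% of protein-coding genes) and chromosome 3 (1.33% against 4.58%). These shares are descriptions, and copies of a family are not independent.

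Sequences just before the start sites were available for 54 members, from RefSeq (GRCm38.p6). Over 250 bases the members had a median of 5 CpG dinucleotides, the 50 matched genes that had reached 5 TPM at D9 had 10.5, and all 16759 matched protein-coding genes had 10. The 8 matched members on the germ cell list went the other way, with a median of 13.5 CpG and a range of 5 to 31, while the other 46 members had a median of 4. Those 46 include near-identical copies on chromosome 10 (Gm20765, Gm21293, Gm21312 and Gm8764, 1 CpG each), which are not independent and lower the median. The first listed start of each gene was used, which need not be that of its main ESC transcript.

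**Figure D5:**
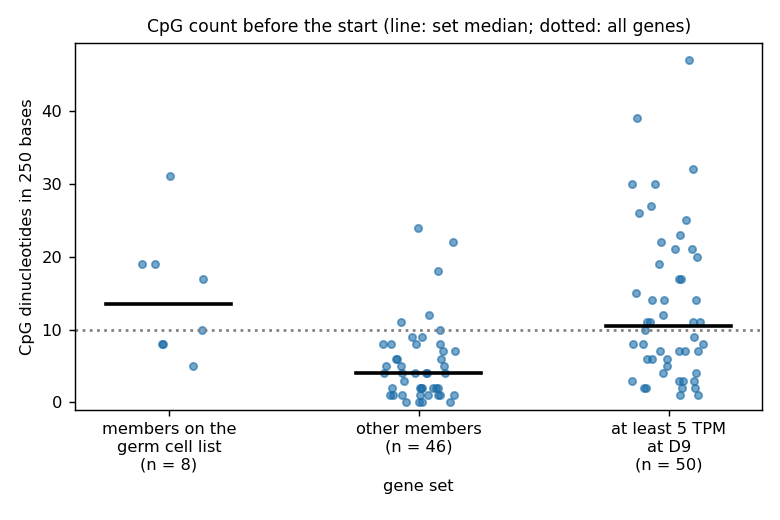
Number of CpG dinucleotides in the 250 bases before the start site, 1 point per gene, for members on the germ cell list (n = 8), other members (n = 46) and genes with at least 5 TPM at D9 (n = 50), with lines at the set medians and a dotted line at the median of all protein-coding genes. The medians are 13.5, 4 and 10.5.

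Short motifs were searched on both strands of the same 250 bases. The E-box CACGTG was found before 7 members (13.0%), before 6.81% of all protein-coding genes and before 0 of the 50 genes that had reached 5 TPM. Of the 7, 4 were on the germ cell list: Ddx4, Fkbp6, Hormad1 and Mov10l1. The motif GCGGGAA of E2F factors was found before 4 members (7.41%; 5.11% of all; 8% of the 50), and 4 of the 8 germ cell list members held it. The octamer ATGCAAAT of Oct factors was found before 2 members (3.70%; 1.61% of all; 6% of the 50) and the motif AAGGTCA of estrogen-related receptors before 7 (13.0%; 3.50% of all; 0 of the 50). The motif GGGNGTGG of Klf factors was found before 5 members (9.26%), 17.9% of all genes and 26% of the 50. A match shows only that these letters are present.

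The sequences before Hormad1 (chr3:95559427-95559676, plus strand) and Fkbp6 (chr5:135350045-135350294, minus strand) were picked from members on the germ cell list that hold an E-box. They have 19 and 17 CpG and 2 E-boxes each. Those before the X-linked genes Mageb16 (chrX:79671436-79671685, minus strand) and Pnma5 (chrX:73037104-73037353, minus strand) were picked because they hold both the octamer and the estrogen-related receptor motif. Both genes rose to D9, and a link to these motifs was not tested. Their sequences have 5 and 0 CpG. Each is written 5′ to 3′ on the gene's strand and ends at the base before the start. Capitals mark matches to CACGTG or GCGGGAA in the first pair and to ATGCAAAT or AAGGTCA, on either strand, in the second.
Hormad1: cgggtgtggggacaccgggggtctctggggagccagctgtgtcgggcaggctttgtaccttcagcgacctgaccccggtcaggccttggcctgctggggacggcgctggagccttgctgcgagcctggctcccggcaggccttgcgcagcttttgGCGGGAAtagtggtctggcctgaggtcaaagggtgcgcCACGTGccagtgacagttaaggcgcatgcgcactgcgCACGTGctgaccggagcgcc
Fkbp6: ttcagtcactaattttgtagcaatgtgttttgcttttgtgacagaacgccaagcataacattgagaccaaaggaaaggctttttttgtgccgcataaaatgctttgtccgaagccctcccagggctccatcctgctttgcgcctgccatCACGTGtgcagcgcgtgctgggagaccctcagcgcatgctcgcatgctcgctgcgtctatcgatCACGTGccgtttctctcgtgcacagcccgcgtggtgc
Mageb16: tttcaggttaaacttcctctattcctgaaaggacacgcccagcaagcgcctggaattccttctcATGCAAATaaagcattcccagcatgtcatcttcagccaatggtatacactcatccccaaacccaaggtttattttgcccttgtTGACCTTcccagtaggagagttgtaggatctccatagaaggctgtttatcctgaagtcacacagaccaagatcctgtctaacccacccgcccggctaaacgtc
Pnma5: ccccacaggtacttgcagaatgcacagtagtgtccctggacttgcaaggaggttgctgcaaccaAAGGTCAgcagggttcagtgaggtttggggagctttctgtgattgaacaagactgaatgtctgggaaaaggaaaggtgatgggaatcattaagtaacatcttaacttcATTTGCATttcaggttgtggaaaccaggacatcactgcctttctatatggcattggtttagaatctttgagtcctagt

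Of the first pair, Fkbp6 had reads in all 8 libraries outside ESC and Hormad1 in 3. Of the second, both genes were at 0 in MEF, and Pnma5 had reads from D3 on whereas Mageb16 had none until D9.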

How the data were processed

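Poly(A) RNA was sequenced as single reads of 50 nt from 10 libraries with a stranded kit, per the labels. Salmon 0.8.2 and mm10 are named in the submitters' processing notes. The authors deposited, per transcript, an estimated count and a TPM value (109617 transcripts per library), per the file headers. The annotation release is not given in the sources used here. Both were summed per gene by the identifiers in the transcript names. All libraries carry the same batch label.

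The rule was applied to TPM means. Estimated counts were rounded and tested with edgeR 4.0.16 in R 4.3.3 (TMM, filterByExpr with minimum count 10 and total 15, quasi-likelihood test, all 10 libraries, 20165 genes). Alternatives used DESeq2 1.42.0, limma 3.58.1, other filters, scalings and subsets. Members and lists were chosen with earlier results of these data known, and the role groups by hand after the members were seen. Named are members among the 20 highest in ESC, on a list, called (at most 8 per direction), near a threshold or in a neighbour group; the others named were chosen after their values were seen. The list of G protein-coupled receptors matched Mcf2 by its first letters only, which is an exchange factor and no receptor; no member was on the PRAME or homeobox lists. Slc5a11, Fgf17, Mageb16 and Khdc3 were the members on the lists of channels and carriers, growth factors, X-linked testis families and egg genes. Members on the list of zinc fingers by symbol were Rex2, Zfp640 and Zfp936.

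On simulated counts for D9 against MEF (19075 genes), edgeR called 49 of 50 genes raised 4-fold and 16 of 49 raised 2-fold, with 1 unchanged gene called. The raised genes were drawn from all tested genes, at their mean level over all libraries and with a common dispersion. These rates therefore do not carry over to members with few reads outside ESC. Sequences are from RefSeq and positions from GENCODE M21. With 2 libraries per group, precision for members at 0 to 3 reads is set by counting error.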

Additional observations from a re-analysis of the deposited data

How the results depend on the processing

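The number of genes in the set was 36 with an ESC minimum of 10 TPM, 203 with 2 TPM and 120 with a cap of 1 TPM, 117 (47 of the 79 among them) with CPM in place of TPM, 69 (63 of the 79) with coding transcripts only, and 77 to 80 when any 1 library was left out. The summed level in ESC was 1020.8 TPM without Gm17404 and 1432.7 to 1436.7 TPM by library, and at D9 9.61 to 11.5 TPM. For D9 against MEF, where 35 rose and 7 fell, 18 rose in a fit of only the 2 groups, 22 rose and 4 fell without ESC and with its own filter, 13 and 4 with limma on log2(TPM + 0.1), 0 and 0 with limma on log2(TPM + 1), and 28 to 35 and 5 to 8 without 1 library. For D9 against D6, where 26 rose and 0 fell, 15 rose in the fit of 2 groups, 13 without ESC, 8 and 0 with the 2 limma settings and 20 to 27 without 1 library, and 1 fell with no filter on low counts (0 to 1 without 1 library, with the 1 without D6 replicate 1). For D6 against D3, where 15 rose and 1 fell, 8 rose in the fit of 2 groups, 3 and 0 with limma and 11 to 16 without 1 library. There 2 fell with DESeq2, with DESeq2 size factors, with no filter, in both fits without ESC and with no fold change minimum, 0 fell with limma on log2(TPM + 1), and 1 to 2 without 1 library (2 without either MEF library, either D3 library or D6 replicate 2). For D3 against MEF, where 8 rose and 12 fell, 4 rose with DESeq2, 3 in the fit of 2 groups, 5 and 4 in the fits without ESC with its own and the full filter, 3 and 0 with limma and 4 to 8 without 1 library (4 without either MEF library), and 6 fell in the fit of 2 groups, 7 without ESC, 6 and 0 with limma and 11 to 12 without 1 library. The causes of these shifts were not tested. Cd37 turned from lower to higher at D3 with limma (log2 difference 0.0365 with a pseudocount of 0.1 and 0.0423 with 1). Of the 35 and 26 rises, 21 and 15 were called under every alternative other than limma in which the gene was tested. A fit whose filter left the gene out was not counted against it, so these numbers overstate how stable the calls were. Library-size scaling in place of TMM moved the median of all genes from 0.19 to 0.48 for D9 against MEF and from 0.08 to 0.29 for D3 against MEF.

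A replicate block left 35 rises and 7 falls for D9 against MEF, 25 and 0 for D9 against D6, 15 and 1 for D6 against D3, and 8 and 12 for D3 against MEF. The deviations of equal replicate numbers correlated at -0.02 to 0.022 over 10 pairs of groups. They were taken over all tested genes, where counting error can hide a shared part. Whether equal numbers share a preparation cannot be told from them.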
